A study of Caenorhabditis elegans with 2 samples.

Results

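Binding of the T-box protein SEA-1 was examined at 31 genes whose maternal products set up polarity and cell fate in the early embryo of the nematode Caenorhabditis elegans. The genes were given by name, without a threshold on binding, and all 31 were found among the 19973 protein-coding genes of the nuclear chromosomes. They comprise 7 PAR polarity genes, 12 genes for RNA-binding proteins, 9 genes of the Wnt and Notch pathways, and 3 others, the transcription factor genes skn-1 and pal-1 and the degradation adaptor gene zif-1. The study has a single group of 2 biological replicates: whole early embryos (0 hours) collected by bleaching, from strain OP129, which carries the integrated array wgIs129 with sea-1 fused to TY1, EGFP and 3xFLAG tags, an unc-119(+) rescue marker and the unc-119(ed3) allele. Chromatin sonicated to a size range of 200 to 800 was precipitated with an antibody against GFP according to the description of the samples, while their antibody field reads sea-1. There was no second condition, the labels do not name the promoter that drives the fusion gene, and no untagged control values were used here. Embryos were taken whole, so strong binding in few cells and weak binding in many cells cannot be told apart, and no expression was measured.

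In the worm zygote the anterior proteins PAR-3, PAR-6 and the atypical kinase PKC-3 and the posterior proteins PAR-1 and PAR-2 hold each other apart at the cell cortex, with the kinase PAR-4 and the phosphoprotein-binding scaffold PAR-5 needed for the pattern. Downstream, RNA-binding proteins that the mother supplies are sorted to anterior or posterior cells and control which maternal mRNAs are translated, and Wnt and Notch signals between the first blastomeres then split sister fates. SEA-1 is known for its part in counting autosomes against X chromosomes, through the sex-determination gene xol-1.

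For each gene the promoter window covered 1000 bp before and 200 bp after each annotated transcript 5′ end, and the highest signal value of a ranked peak with its summit in a window was taken. The signal value is the authors' own, with no stated normalization. It is therefore also given as a percentile, the share of all protein-coding genes with a lower value, where a gene with no peak counts as 0. Ranked lists hold weak peaks too: 13970 of 19973 protein-coding genes (69.9%) had a ranked summit in the series list, made from both replicates. A summit of the conservative list, in which every peak passed the authors' limit on the irreproducible discovery rate (IDR) between replicates, was found at 657 protein-coding genes (3.29%).

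Of the 31 genes, 4 had a conservative summit in the window (12.9%, against 3.29% of all protein-coding genes): lit-1, a kinase gene, and 3 genes for RNA-binding proteins, mex-3, mex-1 and spn-4. With only the outermost 5′ end of each gene the count was 2 (mex-1 and spn-4), against 2.96% of all protein-coding genes. With each peak given only to its nearest 5′ end it was 2 (lit-1 and mex-3), against 2.44%. As many as 29 had a ranked summit in the series list (93.5%, against 69.9%). The median percentile over the 31 genes was 80.8 in the series list, 83.9 in replicate 1 and 79.5 in replicate 2, beside a median of 50 over all protein-coding genes in each list. At or above the 75th percentile of the series list lay 19 genes, and at or above the 90th lay 9. These counts and medians are descriptions of a chosen list and carry no test. The plot of percentiles by role shows that the roles were spread differently. The PAR, Wnt and Notch genes lay mostly in the upper range. Of the RNA-binding protein genes, 4 lay above the 90th percentile of the series list and the others were spread from 0 to 67.7.

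**Figure D1:**
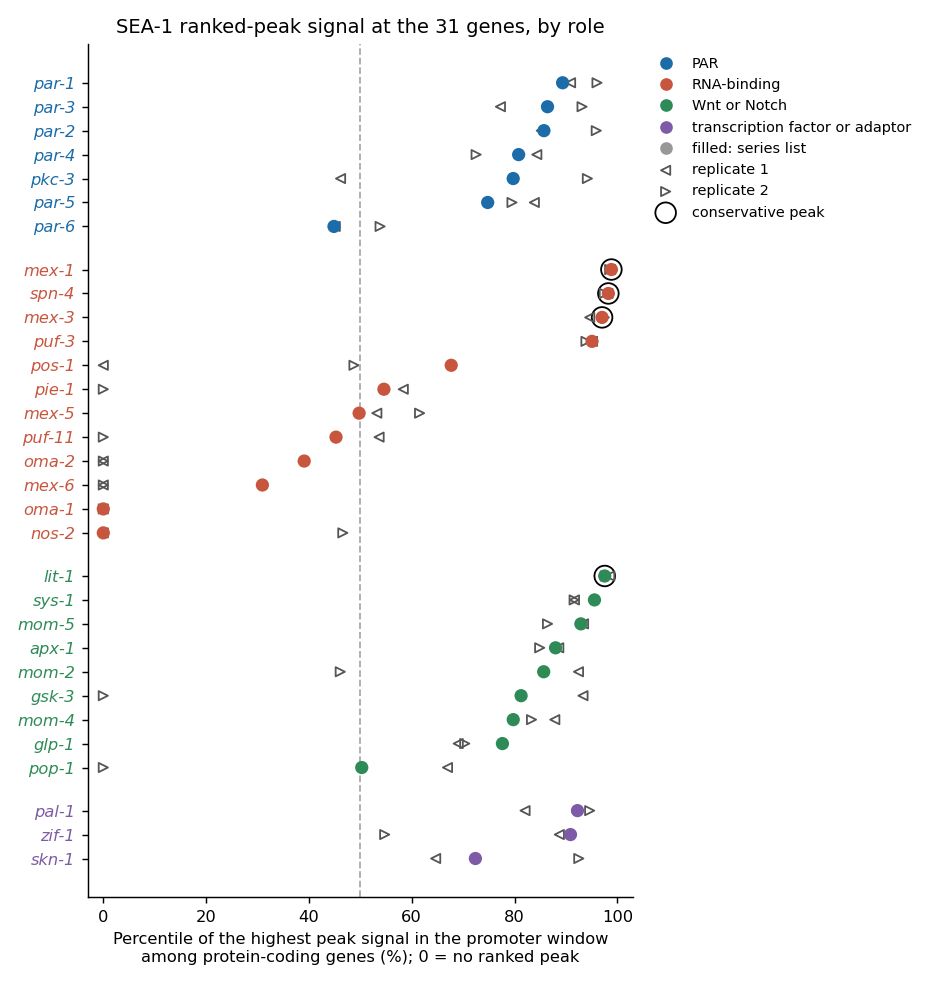
Percentile of the highest peak signal in the promoter window among protein-coding genes (x axis, %) for the 31 genes (rows, grouped by role and ordered by the series list). Filled points are the series list, open triangles the replicates' own ranked lists, a ring marks a conservative peak, and 0 means no ranked peak. All 4 ringed genes lie at or above 94.6 in all 3 lists, and oma-1 is at 0 in all 3.

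The sequences at 3 of the 4 conservative peaks, and at the peak that came nearest to joining them, are shown because the account of the strongest sites turns on them. They are 201 bases of assembly WBcel235 (the ce11 coordinates), centred on the summit and read in the direction of the named gene, with the 11 bases at the summit in capitals. The first 3 belong to conservative peaks, those of mex-1 at chrII:11967616-11967816 on the plus strand, spn-4 at chrV:6785202-6785402 on the minus strand and lit-1 at chrIII:13713910-13714110 on the plus strand. The fourth, of puf-3 at chrIV:13512519-13512719 on the minus strand, narrowly missed the list.
mex-1: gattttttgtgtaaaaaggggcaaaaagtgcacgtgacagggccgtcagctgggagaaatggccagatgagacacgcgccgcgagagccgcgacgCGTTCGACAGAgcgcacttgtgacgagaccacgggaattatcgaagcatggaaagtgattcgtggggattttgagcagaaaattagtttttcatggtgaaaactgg
spn-4: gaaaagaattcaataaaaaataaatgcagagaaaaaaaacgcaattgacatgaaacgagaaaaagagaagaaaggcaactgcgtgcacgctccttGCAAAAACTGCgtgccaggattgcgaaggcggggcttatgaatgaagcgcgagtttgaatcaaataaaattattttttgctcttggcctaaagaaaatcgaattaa
lit-1: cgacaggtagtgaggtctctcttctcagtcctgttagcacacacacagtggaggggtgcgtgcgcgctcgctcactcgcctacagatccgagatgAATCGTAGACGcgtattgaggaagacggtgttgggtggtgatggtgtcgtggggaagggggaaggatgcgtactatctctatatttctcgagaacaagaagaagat
puf-3: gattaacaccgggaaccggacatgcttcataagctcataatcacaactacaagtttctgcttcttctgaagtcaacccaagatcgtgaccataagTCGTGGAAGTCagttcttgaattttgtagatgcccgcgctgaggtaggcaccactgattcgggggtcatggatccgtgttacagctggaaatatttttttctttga

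None of these sequences holds the T-box core GGTGTGA on either strand. Among the 29 genes with a series peak, it was found within 100 bp of the summit at mom-4 alone (3.45%), against 1.79% of the 12634 distinct highest promoter summits of protein-coding genes and 1.60% of the 1249 conservative summits. Its shorter part GTGTGA was found at mom-4 and oma-2 (6.90%, against 7.88% of promoter summits). The B box of RNA polymerase III genes, GTTCGANNC, occurs at 16.3% of conservative summits and 2.03% of promoter summits and was at none of the 29. The E2F-like motif GCGGGAA was found at pie-1 (3.45%, against 3.27% of promoter summits). After the printed sequences had been read, GCGTG was counted as well: of the 4 genes with a conservative summit, mex-1, spn-4 and lit-1 hold it and mex-3 does not, nor does puf-3, and in all it was at 6 of the 29 summits (20.7%), against 16.7% of promoter summits and 35.1% of conservative summits. The hexamer CACGTG, also chosen after reading, was at mex-1 alone (3.45%, against 4.08% of promoter summits). The GC content of the 201 bases was 50.7% at mex-1, 37.3% at spn-4, 53.2% at lit-1 and 44.8% at puf-3, against a median of 46.8% at conservative summits and 38.8% at promoter summits.

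The strongest peak of the set was that of mex-1, which encodes a CCCH zinc-finger protein of the germline blastomeres. Its signal value was 59.2 in replicate 1 and 54.3 in replicate 2, and 116.5 in the series list, rank 470 of 103831 peaks. It lay at percentile 98.7 in replicate 1 and 98.5 in replicate 2, with summits in all 3 lists within 2 bp of each other. The peak (chrII:11967556-11967875) is intergenic and its summit lies 921 bp upstream of mex-1, but only 172 bp upstream of the divergent gene W03C9.5, and 785 bp upstream of rab-7, a small GTPase gene. mex-1 was also the only one of the 31 genes with a summit in the own thresholded lists of both replicates.

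For spn-4, which encodes an RNA-recognition-motif protein, the signal value was 52.6 in replicate 1, 45.8 in replicate 2 and 101.6 in the series list, at percentiles 98.2, 97.5 and 98.3. Summits in the 3 lists lay within 9 bp. The peak (chrV:6785142-6785461) sits in the intergenic space between divergent genes, 399 bp upstream of spn-4 and 149 bp upstream of spe-39. Neither replicate's own thresholded list had a summit there, although both ranked it high.

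The KH-domain protein gene mex-3, whose product keeps pal-1 mRNA silent in anterior cells, had signal values of 37.6 in replicate 1, 45.6 in replicate 2 and 81.5 in the series list, at percentiles 94.6, 97.5 and 97.0. Its summit lay 2 bp downstream of an internal 5′ end, in a coding exon of longer transcripts, and 5 distinct 5′ ends are annotated for the gene. The peak passed the conservative list but not the second thresholded series list.

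At lit-1, the gene for a Nemo-like kinase that acts on the TCF protein POP-1, values were 57.1 in replicate 1, 46.9 in replicate 2 and 87.2 in the series list, at percentiles 98.5, 97.7 and 97.5. The summit (peak chrIII:13713850-13714169) lay 35 bp upstream of an internal 5′ end and in an intron of longer transcripts, and the 3 lists placed it within 100 bp. The own thresholded list of replicate 1 held it and that of replicate 2 did not.

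In all, 2 of the 31 genes (mex-1 and lit-1) had a summit in the thresholded list of replicate 1, against 1.54% of protein-coding genes, and 1 (mex-1) in that of replicate 2, against 1.57%. By the authors' q-values, the highest peaks of 2 genes (mex-1 and spn-4) were at 0.05 or better (6.45%, against 2.41% of protein-coding genes). The −log10 of the IDR between replicates was 3.03 at mex-1, 2.84 at lit-1, 2.75 at spn-4 and 2.28 at mex-3. Just outside the conservative list, whose limit is an IDR of 0.01 or a −log10 of 2, was puf-3 with 1.99, followed by mom-5 with 1.401 and sys-1 with 1.37. The gene puf-3 thus lay nearer to the conservative genes than to the next gene below it.

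The strongest sites differed in their position relative to the annotated 5′ ends. Summits at mex-1 and spn-4 lay in intergenic space nearer to another gene's 5′ end. The summit at puf-3 lay in a coding exon of afmd-2 and was also nearer to that gene's 5′ end. Those at mex-3 and lit-1 lay at internal 5′ ends of their own genes. The summit at sys-1, whose signal value of 71.5 is above that of puf-3, lay in an intron of its own gene, 768 bp from the nearest 5′ end, which is also its own. Another series peak of sys-1, with a signal value of 69.7, had its summit 17 bp downstream of one of its 5′ ends. Of the 29 highest summits, 7 were nearer to the 5′ end of another protein-coding gene (24.1%, against 17.4% of the 13970 genes with a ranked summit and 26.2% of the 657 with a conservative summit): par-5, mex-1, pos-1, spn-4, puf-3, mom-4 and zif-1. By annotation 10 summits were intergenic, 10 in introns and 9 in coding exons, and no shares over all genes are given here for these places. No summit of the 29 was 100 bp or less away from any tRNA, snoRNA or snRNA gene, against 1.15% over the 13970 genes and 13.9% over the 657. Within 200 bp of the gene's 5′ end lay 11 of the 29 summits (37.9%, against 37.6% over the 13970 genes).

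**Figure D2:**
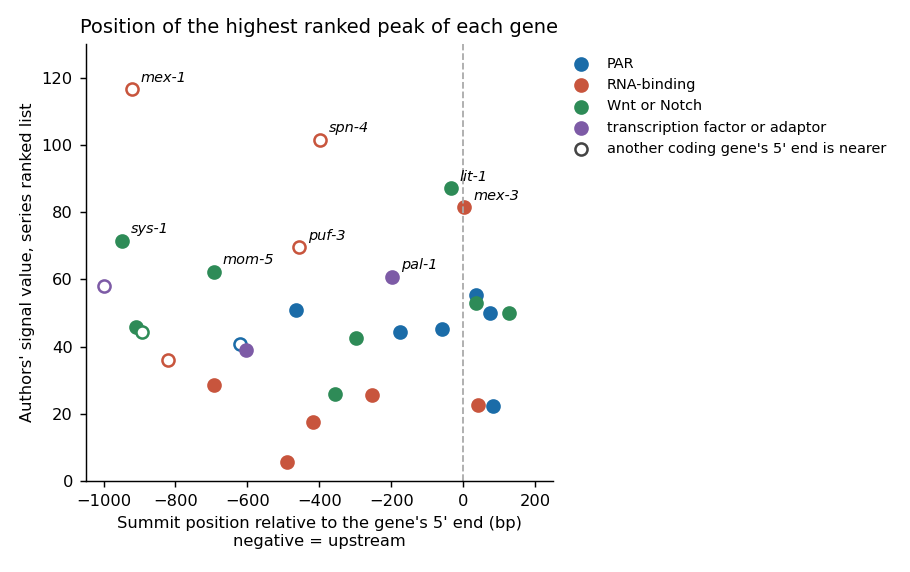
Position of the highest ranked series peak of each gene relative to the gene's 5′ end (x axis, bp, negative upstream) against the authors' signal value (y axis), for the 29 genes with a peak. Colours give the role, and open circles mark the 7 peaks that lie nearer to the 5′ end of another protein-coding gene. Among the labelled peaks, mex-1 (116.5), spn-4 (101.6) and puf-3 (69.5) are open, and lit-1 (87.2) and mex-3 (81.5) are filled at the 5′ end.

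Of the 7 PAR genes, 6 lay at percentile 74.8 or above in the series list, par-6 lay at 44.9, and none had a conservative summit. Their median percentile was 80.8 in the series list, 83.9 in replicate 1 and 93.1 in replicate 2, and each had a ranked summit in the series list and in both replicates. Across all protein-coding genes 44.3% had a summit in all 3 lists, and of the 31 genes 22 did. The highest value among the PAR genes was that of par-1, the posterior kinase gene, with 32.5 in replicate 1, 39.97 in replicate 2 and 55.3 in the series list (percentile 89.4). That gene has 11 annotated 5′ ends and 20 ranked series peaks in its windows, and the highest peaks of the 3 lists spanned 6717 bp, so they are not the same site.

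The posterior RING-finger protein gene par-2 had 28.1 in replicate 1, 39.4 in replicate 2 and 50.2 in the series list (percentile 85.7), and the anterior scaffold gene par-3 had 24.2, 34.2 and 51.0 (percentile 86.4). The LKB1-related kinase gene par-4 had 27.5, 21.3 and 45.3 (percentile 80.8), and par-5 had 27.3, 24.1 and 40.8 (percentile 74.8). Both replicates placed par-2 to par-5 between percentiles 72.5 and 95.9, but the highest summits of the 3 lists spanned 181 to 1279 bp. Of the genes of PAR-3's partners, pkc-3 lay below those percentiles in replicate 1 only, and par-6 lay below them in both replicates. For pkc-3, with a summit 175 bp upstream of its only 5′ end, replicate 1 gave 11.4 (percentile 46.2) and replicate 2 gave 35.6 (percentile 94.2), with 44.5 in the series list (percentile 79.7). For par-6, which encodes a PDZ-domain scaffold, values were 10.7, 14.8 and 22.4, at percentiles 45.1, 53.8 and 44.9, the lowest of the 7 genes in the series list and in both replicates.

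The RNA-binding protein genes held the strongest peaks and also the only windows with no peak in the series list. Their median percentile was 52.2 in the series list, 53.4 in replicate 1 and 47.7 in replicate 2, near the median of all protein-coding genes. The genes mex-1, spn-4, mex-3 and puf-3 lay at percentiles of 95.1 or more in the series list, and the other 8 at 67.7 or less. The peaks of mex-1, spn-4 and puf-3 are nearer to another gene's 5′ end. With each peak given only to its nearest 5′ end, mex-1 and puf-3 lay at percentile 0 and spn-4 at 41.2, while mex-3 lay at 97.8. In each replicate 5 of the 12 had no ranked peak (41.7%), against 40.4% of protein-coding genes in replicate 1 and 41.2% in replicate 2. The 4 strong genes had peaks of like position in all lists, with summits 2 to 19 bp apart.

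Among the weaker genes, mex-5, a CCCH protein gene of the anterior cytoplasm, had 15.0 in replicate 1, 17.5 in replicate 2 and 25.5 in the series list, at percentiles 53.2, 61.5 and 49.8. For pie-1, the germline repressor of transcription, replicate 1 gave 16.99 and the series list 28.5 (percentile 54.6), with no peak in replicate 2. The replicate 1 summit lay 191 bp downstream of an internal 5′ end and the series summit 693 bp upstream of it. At the series site replicate 1 had 12.5. With the outermost 5′ end alone pie-1 lay at percentile 0 of the series list. For pos-1, a CCCH protein gene needed for posterior fates, replicate 2 gave 12.4 and the series list 36.0 (percentile 67.7), with no peak in replicate 1. The Nanos-related gene nos-2 had a peak of 11.2 in replicate 2 and none in the series list or replicate 1. In those 2 lists the nearest summits lay 1030 bp (series) and 1353 bp (replicate 1) from its 5′ end. With the other ranked series list nos-2 lay at percentile 39.6. For these 4 genes the ranked peaks were therefore low or found in part of the lists.

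The set holds 3 pairs of closely related genes. The Pumilio-family gene puf-3 had 38.9 in replicate 1, 35.2 in replicate 2 and 69.5 in the series list (percentile 95.1), while its relative puf-11 had 15.2 in replicate 1, no peak in replicate 2 and 22.7 in the series list (percentile 45.3). Lying within afmd-2 on the opposite strand, puf-3 had its summit 457 bp upstream, in a coding exon of afmd-2 and 71 bp upstream of a 5′ end of that gene. Of the CCCH oocyte-maturation genes, oma-1 had no ranked peak in any of the 3 lists, and oma-2 had 17.7 in the series list (percentile 39.1) and none in either replicate or in the other ranked series list. In a window of 2000 bp upstream to 500 bp downstream, oma-2 lay at percentile 91.3 and oma-1 still had no peak. For mex-6, the relative of mex-5, the series list gave 5.83 (percentile 30.9) and the replicates gave none in the window. A replicate 2 peak of 19.1 had its summit 243 bp downstream of the mex-6 5′ end, just outside the window. Of the 31-base words in the windows of these 6 genes, between 99.2% and 100% occur once in the genome. Read length is not known here, and the part of shared sequence in these differences was not tested.

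The Wnt and Notch genes had a median percentile of 85.7 in the series list, 91.7 in replicate 1 and 83.3 in replicate 2, above that of the PAR genes in the first and second of these and below it in the last. Of the 9 genes, 8 lay at or above the 75th percentile of the series list, 7 in replicate 1 and 5 in replicate 2. Among ligands, the Wnt gene mom-2 had 34.04 in replicate 1 (percentile 92.4), 10.9 in replicate 2 (percentile 46.1) and 50.1 in the series list (percentile 85.7). The replicates disagreed in height and in position. The summit lay 29 bp downstream of the 5′ end in replicate 1 and 868 bp upstream in replicate 2. The Delta-like Notch ligand gene apx-1 had 30.5, 27.1 and 53.1, at percentiles 88.6, 84.9 and 88.0, but with 6 annotated 5′ ends and summits that spanned 4976 bp over the lists.

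Among receptors, the Frizzled gene mom-5 had 35.5 in replicate 1, 28.0 in replicate 2 and 62.3 in the series list, at percentiles 93.4, 86.4 and 92.9, with summits within 91 bp. The Notch receptor gene glp-1, whose product receives the APX-1 signal, had 20.8, 20.6 and 42.7, at percentiles 69.0, 70.3 and 77.6, with summits within 52 bp. Both receptors thus had a peak at a stable position in every list, and neither peak was conservative.

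Among the kinases and nuclear partners, sys-1, the gene for a divergent β-catenin, had 33.2 in replicate 1, 32.4 in replicate 2 and 71.5 in the series list, at percentiles 91.7, 91.6 and 95.5. The highest peaks of the replicates lay 950 bp apart, but each replicate had peaks in both places. At the intron site replicate 1 had 33.2 and replicate 2 had 28.7. Around the outermost 5′ end of sys-1, replicate 1 had 30.1 and 10.6 and replicate 2 had 32.4. The MAP kinase kinase kinase gene mom-4 had 29.9, 26.1 and 44.5 (series percentile 79.7), with highest summits that spanned 984 bp over the lists. At the site of its series summit, in a coding exon of lsl-1, replicate 2 had a peak of 16.3. The glycogen synthase kinase gene gsk-3 had 35.3 in replicate 1, no peak in replicate 2 and 45.7 in the series list (percentile 81.3). The TCF gene pop-1 was the lowest of the role, with 20.1 in replicate 1, no peak in replicate 2 and 25.8 in the series list (percentile 50.3). Beyond its window, at 1288 bp upstream of the 5′ end, lay a conservative peak with a signal value of 118.6, higher than any peak in the windows of the 31 genes.

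The 3 remaining genes lay at percentiles from 72.4 to 92.2 in the series list, with less even values in the replicates and the alternatives. The caudal-type homeobox gene pal-1, which specifies posterior somatic fates, had 26.4 in replicate 1, 36.2 in replicate 2 and 60.8 in the series list (percentile 92.2), with summits within 64 bp. The pal-1 series summit lay in an intron, 198 bp upstream of an internal 5′ end. With the outermost 5′ end alone pal-1 lay at percentile 35.8. For skn-1, the transcription factor gene of the endomesoderm lineage, values were 19.4, 33.4 and 39.1, at percentiles 64.7, 92.5 and 72.4, with the replicates' summits 7529 bp apart. The adaptor gene zif-1, whose product directs degradation of CCCH proteins in somatic cells, had 30.5 in replicate 1 (percentile 88.7), 15.1 in replicate 2 (percentile 54.7) and 57.9 in the series list (percentile 90.9). That series summit was at the far edge of the window, 999 bp upstream of zif-1 and in an intron of rpn-6.2. The highest summits of the 3 lists spanned 629 bp. With each peak given only to its nearest 5′ end, zif-1 lay at percentile 0.

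Replicates were set side by side by the position and by the height of the highest peak. Of the 31 genes, 10 had their highest peaks in the 3 lists within 100 bp of each other (32.3%, against 17.6% of protein-coding genes): pkc-3, mex-1, mex-3, mex-5, spn-4, puf-3, glp-1, lit-1, mom-5 and pal-1. Among genes with a peak in all 3 lists the shares were 10 of 22 (45.5%) and 3512 of 8851 (39.7%). Over the 22 genes with a peak in both replicates, log2 signal values of the replicates had a Pearson correlation of 0.48 and a Spearman correlation of 0.51, against 0.51 and 0.43 over 9067 protein-coding genes. This correlation is across genes, which are not independent replicates. The median difference in percentile between replicates was 6.08 for these 22 genes and 11.4 for the 9067, and the largest, at pkc-3, was 48.0.

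**Figure D3:**
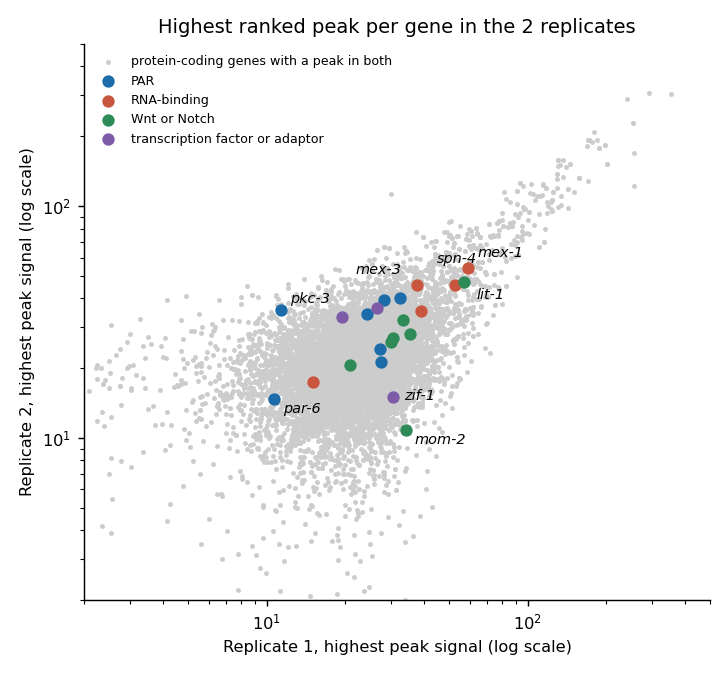
Highest ranked peak signal per gene in replicate 1 (x axis) and replicate 2 (y axis), both on log scales, for the 22 genes with a peak in both (coloured by role) over the 9067 protein-coding genes with a peak in both (grey). The genes mex-1, spn-4, lit-1 and mex-3 lie together towards the upper right, and pkc-3 (11.4 and 35.6) and mom-2 (34.04 and 10.9) lie off the diagonal on opposite sides. The mom-2 values come from different sites in the replicates.

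The number of annotated 5′ ends moved with the percentile, and its part in the medians above was not tested. Over protein-coding genes the median series percentile was 44.6 at 14498 genes with a single 5′ end and 81.1 at 514 genes with 5 or more. The PAR genes had a median of 3 5′ ends and windows of 2404 bp in all, against 1 and 1201 bp over the RNA-binding, the Wnt and Notch and all protein-coding genes. Among genes with a single 5′ end, the 16 of this set had a median of 72.7 in the series list, 60.3 in replicate 1 and 47.7 in replicate 2, against 44.6, 44.5 and 44.7 over all such protein-coding genes. The 9 RNA-binding genes among them had a median of 45.3 in the series list, 0 in replicate 1 and 46.6 in replicate 2. The 5 Wnt and Notch genes had 79.7, 87.8 and 46.1. When only the outermost 5′ end was used, the median of the 31 genes was 69.4, that of the PAR genes 70.9, that of the RNA-binding genes 50.9 and that of the Wnt and Notch genes 82.4.

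Further genes of the same pathways were set beside each role. None of 21 other polarity genes had a conservative summit, and their median series percentile was 83.1, beside 80.8 for the PAR genes. No PAR gene had a summit in the own thresholded list of a replicate. Of the 21 genes, 1 had one in that of replicate 1 and 1 in that of replicate 2. That is 4.76% in each, against 1.54% and 1.57% of protein-coding genes. Highest among them were lgl-1, a cortical polarity gene (signal value 93.6, percentile 97.9, with 98.9 in replicate 1 and 89.0 in replicate 2), and mbk-2, the kinase gene of the oocyte-to-embryo transition (80.8, percentile 97.0, with 97.8 and 98.6). None of 27 other maternal RNA-binding genes had a conservative summit, and their median was 56.7, beside 52.2 for the RNA-binding genes of the set. Of 35 other Wnt and Notch genes 1 had one, the Porcupine-type acyltransferase gene mom-1. Its signal value was 170.1 in replicate 1, 192.7 in replicate 2 and 367.0 in the series list. The mom-1 summit had a tRNA, snoRNA or snRNA gene no more than 100 bp away. The median of the 35 genes was 69.6, beside 85.7 for the 9 genes of the set. As the plot of roles shows, genes of each list were spread over wide and overlapping ranges.

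**Figure D4:**
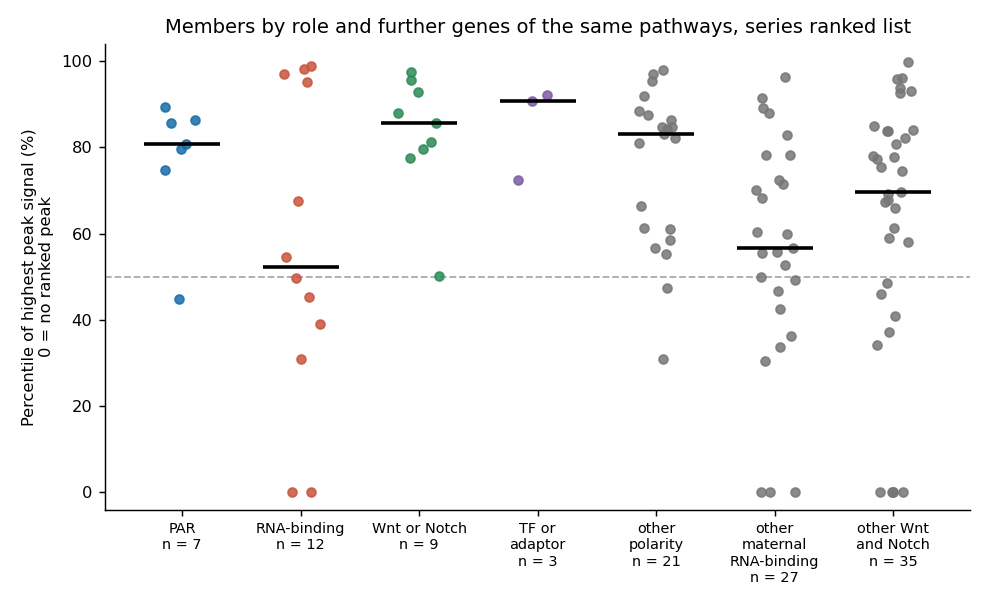
Percentile of the highest peak signal in the series ranked list (y axis, %, 0 meaning no ranked peak) for the 4 roles (coloured) and for 3 lists of further genes (grey). Points are genes, black bars medians and the dashed line the median of all protein-coding genes. The RNA-binding genes split into 4 at 95.1 or above and 8 at 67.7 or below, while 6 of the 7 PAR genes lie between 74.8 and 89.4. At mex-1, spn-4 and puf-3, among those 4, the peak is nearer to another gene's 5′ end.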

How the data were processed

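The authors deposited peak lists on assembly ce11 from chromatin immunoprecipitation of SEA-1-GFP embryos, per the labels. Per the deposited texts beside the samples, each series list was made from 2 alignment files, 1 a replicate, and each replicate's own lists from its 1 file, each with 1 further file. Aligner, peak caller and versions: not given in the sources used here. Read depth is unknown too. The deposited signal value has no stated normalization and served to rank and describe peaks. The deposited −log10 q-value was used for 1 count. The deposited score read here is the −log10 of the IDR. Values of different lists have no stated common scale.

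Summits, 1-based, were assigned to Ensembl 115 genes of WBcel235, whose chromosome lengths hold every peak, with Python 3.11.15 and pandas 2.3.3; sequences are from RefSeq's WBcel235. Of the 2 ranked series lists, which give equal signal values at the peaks they share, one gave the values reported and the other, whose columns hold both replicates' own signal values, gave the IDR between replicates. On simulated data, all 200 planted peaks were assigned to their genes. The members and lists were chosen with earlier results of these data known, and all 31 genes are named. Of the further genes, those with a conservative summit are named, with the neighbours that share a named peak; lgl-1 and mbk-2 were chosen on seeing their values. Gene counts are descriptions without a test, since genes are not replicates. Alternatives changed the window, the assignment, the list and the replicates.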

Additional observations from a re-analysis of the deposited data

How the results depend on the processing

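The median of all protein-coding genes stayed at percentile 50 in the alternatives for percentiles. The count of 4 genes with a conservative summit (3.29% of all protein-coding genes) became 2 with the outermost 5′ end alone (2.96%), 2 with the nearest 5′ end alone (2.44%), 1 with peaks that overlap both own lists (1.02%), 2 in the stronger 624 peaks (1.97%) and 7 at an IDR of 0.05 (6.69%). From the list of 1 replicate it was 1 to 2 (1.57% and 1.54%). It was 3 to 5 with the other alternatives (2.29% to 4.80%). The median percentile of the 31 genes (80.8) became 66.1 from 500 bp upstream to 100 bp downstream, 77.2 from 2000 to 500 bp, 69.4 with the outermost and 72.7 with the nearest 5′ end alone, and 73.2 among genes with a ranked peak. In the same order, except as named, the PAR median (80.8) became 87.7, 69.4, 70.9 (outermost) and 72.5 (genes with a peak). The RNA-binding median (52.2) became 56.5, 63.5, 43.7 (nearest) and 44.4 (genes with a peak). The Wnt and Notch median (85.7) became 66.5 in the narrow window and 79.5 among genes with a peak. Without replicate 1 or 2 the medians were 79.5 to 83.9 (all), 83.9 to 93.1 (PAR), 47.7 to 53.4 (RNA-binding) and 83.3 to 91.7 (Wnt and Notch). The RNA-binding median was the lowest of these 3 roles in each of these alternatives for percentiles. The order of the other 2 turned in the narrow window and without replicate 1. Among genes with a single 5′ end, however, the RNA-binding median in replicate 2 was 46.6, against 46.1 for the Wnt and Notch genes. The cause of these changes was not tested. No paired analysis was possible because there is 1 group. The unknown depth limits what the absence of a peak shows.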
